A study of Mus musculus with 6 samples.

Results

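Chromosome 1 held 1030 of the 9010 regions in a deposited list of DNA sites recovered with the long noncoding RNA Meg3 from mouse insulinoma cells. A member is any row of that list on chromosome 1, at any width. The chromosome was selected on its measured density, the highest in the list, so its count and density are descriptions here and carry no test. The same holds for the stretch from 83 to 93 Mb, which was picked by its count.

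Meg3 is an imprinted RNA made from the maternal copy of the Dlk1-Dio3 cluster on mouse chromosome 12. It is known as a growth-restraining RNA that is often silenced in endocrine tumours, and it is expressed in pancreatic islets, where beta cells make insulin. Meg3 binds the Polycomb repressive complex PRC2, which methylates histone H3, and Meg3 can pair with GA-rich DNA in the major groove to form a triplex. The Meg3 gene does not lie on chromosome 1.

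The method was chromatin isolation by RNA purification (ChIRP), in which antisense DNA probes with biotin pull out an RNA together with DNA fixed to it. Pull-downs with odd-numbered and with even-numbered probes serve as separate captures of one RNA, so that DNA taken up by single probes can be told from DNA that follows the RNA. The cells were MIN6-4N, a beta cell line from a mouse insulinoma, as stable G418-selected clones. The list carries the code of the clone with pcDNA3.1-Meg3 (M5), for which 3 libraries are described (input, odd probes, even probes). The matching clone with empty pcDNA3.1 (V3) has the same 3 kinds of library. No list of regions from the V3 clone is used below. Whether its libraries were used to make the M5 list is not given in the sources used here. Each clone is 1 clone, each kind of library has no replicate, and both clones passed through glutaraldehyde fixation and G418. The list gives positions on mm9 and no height, fold or p-value, so depth is unknown and each region counts alike. How the odd, even and input libraries entered the list is not given in the sources used here, and neither is the meaning of the word unique in its name. No mm9 genome or annotation was used, so the gene, exon, repeat and base composition at a region were not analysed here.

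The regions of chromosome 1 ran from 3676102 to 197133908, a span of 193.5 Mb that was taken as the length of the chromosome. Their density was 5.32 per Mb (95% exact Poisson interval 5.00 to 5.66), against 3.56 per Mb on the other 18 autosomes together (3.48 to 3.64). The next densest chromosomes were 11, at 4.93 per Mb (4.54 to 5.35), and 17, at 4.50 per Mb (4.07 to 4.95). These intervals, like all below, cover counting error only and treat regions as independent, which neighbouring regions are not. Added end to end, the regions of chromosome 1 covered 209.3 kb, or 0.108% of the span, against 0.0706% on the other autosomes.

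Regions were thinly spread over most of chromosome 1, with a raised count in many windows rather than in a single place. Windows of 1 Mb were laid at whole megabases, and 193 of them lay inside the span. They held 5.33 ± 3.85 regions (mean ± SD over windows), with a median of 4 and quartiles of 2 and 8. The corresponding 2187 windows of the other autosomes held 3.54 ± 2.82 regions, with a median of 3 and quartiles of 1 and 5. Empty windows made up 4.66% of chromosome 1 (9 windows) and 10.1% of the other autosomes (221 windows). At the other end, 28 windows of chromosome 1 (14.5%) held 10 or more regions and together carried 32.6% of its regions in windows. On the other autosomes, 4.16% of windows reached 10, and they carried 13.4% of the regions. Fewer empty and more full windows follow in part from the density by which chromosome 1 was chosen. The other dense chromosomes resembled chromosome 1 in part. Chromosome 11 gave 2.56% of windows empty, a median of 4 and 6.84% of windows at 10 or more. These values leave out its opening window, which is not whole and held 24 regions. Chromosome 17 gave 4.40% of windows empty, a median of 4 and 9.89% at 10 or more.

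**Figure D1:**
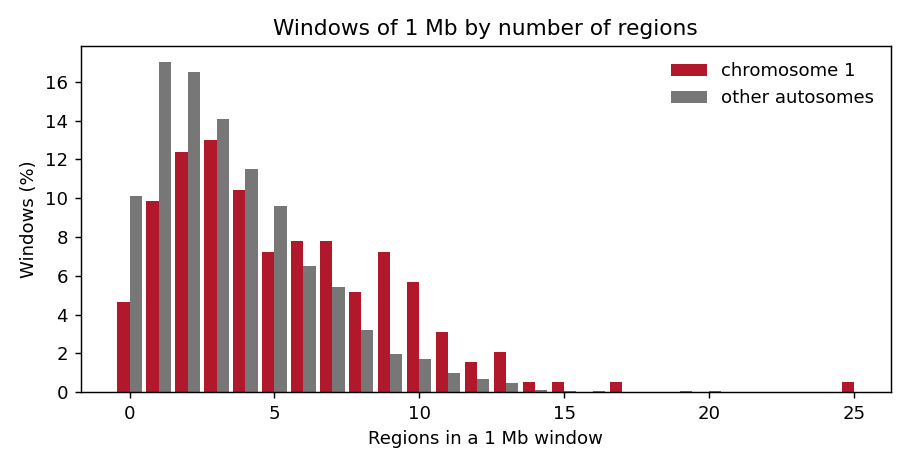
Share of 1 Mb windows (vertical axis, percent) by the number of regions they hold (horizontal axis), for the 193 windows of chromosome 1 and the 2187 windows of the other autosomes. Windows with no region make up 4.66% on chromosome 1 and 10.1% elsewhere, and windows with 10 or more make up 14.5% and 4.16%. Both differences follow in part from the density by which chromosome 1 was chosen.

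The 2 measures of how unevenly regions filled the windows did not point the same way. The fullest 10% of its 1 Mb windows (19 windows) held 23.8% of the regions in windows, against 27.0% on the other autosomes, 23.5% on chromosome 11 and 24.9% on chromosome 17. The variance of the window counts was 2.79 times their mean on chromosome 1 and 2.25 times on the other autosomes, and a ratio of 1 is what independent placement at one rate gives. This ratio rose with window size on both. Without the window from 90 to 91 Mb the ratio of chromosome 1 was 2.47. At 100 kb it was 1.31 on chromosome 1 and 1.14 elsewhere, at 5 Mb it was 6.49 and 5.21, and at 10 Mb it was 6.68 and 7.05. In whole windows, chromosome 1 thus had a higher ratio than the other autosomes pooled at 100 kb, 1 Mb and 5 Mb. At 10 Mb it had the lower one. At 1, 5 and 10 Mb the ratio was 2.05, 5.19 and 7.79 on chromosome 11. On chromosome 17 it was 2.34, 7.23 and 4.81. Chromosome 17 thus exceeded chromosome 1 at 5 Mb and chromosome 11 did so at 10 Mb. The pooled ratio also includes differences in mean count between chromosomes. Both measures move with the mean count, which differs between the sets. They also leave out windows that are not whole. The opening windows of chromosome 11, with 20 regions at 100 kb and 24 at 1 Mb, are missing for this reason. The fullest windows of chromosome 1, with 11 and 25 regions, were counted. The measures with the opening windows of chromosome 11 included were not computed, so the order of the sets holds for whole windows only.

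The fullest windows of 1 Mb were spread along the chromosome. The window from 90 to 91 Mb held 25 regions, that from 134 to 135 Mb held 17, that from 88 to 89 Mb held 15 and that from 120 to 121 Mb held 14. Next came 4 windows with 13 regions each, from 13 to 14 Mb and in a row from 192 to 195 Mb. The largest count in a whole window of the other autosomes was 20. The first megabase window of chromosome 11, which begins before its first region at 3001671 and so is not counted as whole, held 24 regions. The window from 120 to 121 Mb stood alone, since all 11 windows from 109 to 120 Mb were at or below the median of 4 and so were the 6 from 121 to 127 Mb. The 9 empty windows lay at 26, 47, 48, 58, 81, 86, 96, 101 and 152 Mb (start of the window). The one at 86 Mb lies inside the stretch from 83 to 93 Mb, and those at 81 and 96 Mb lie on either side of it.

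**Figure D2:**
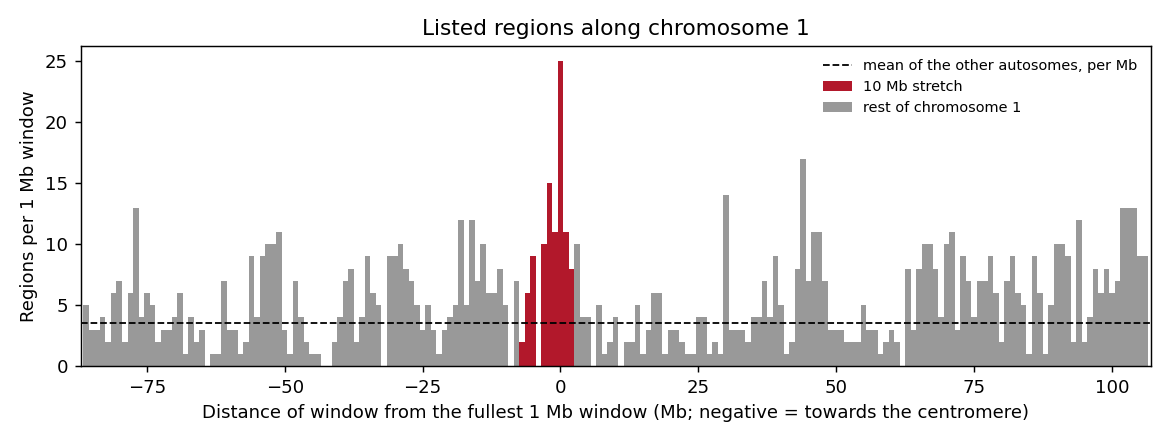
Regions in each 1 Mb window of chromosome 1 (vertical axis) by the distance of the window from the fullest one (horizontal axis, Mb, negative towards the centromere), with the stretch from 83 to 93 Mb in red and the mean of the other autosomes, 3.56 per Mb, as a broken line. The red bars hold the maximum of 25 and one empty window, and other groups of full windows stand on both sides, up to the end of the chromosome.

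In windows of 5 Mb the chromosome appeared as dense and sparse blocks. The 38 windows held 26.4 ± 13.1 regions (mean ± SD), with a median of 25 and a range from 4 to 58. The fullest was 90 to 95 Mb with 58 regions, followed by 190 to 195 Mb with 52, 85 to 90 Mb with 45, 35 to 40 Mb with 44 and 180 to 185 Mb with 43. The emptiest was 45 to 50 Mb with 4 regions, and only the window from 40 to 45 Mb, with 17 regions, lay between it and the full window of 44. On the other autosomes the 427 windows held 17.6 ± 9.58 regions, with a range from 0 to 57. The maximum of chromosome 1 thus lay 1 region above theirs, and the 57 was reached on chromosome 17. In fixed windows of 10 Mb the order was reversed, with a maximum of 75 on chromosome 1 and 93 on the other autosomes. This order depends on where the windows start, since a boundary at 90 Mb splits the dense run from 87 to 94 Mb. A frame from 84 to 94 Mb held 105 regions, and moved frames were not counted on the other autosomes.

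Blocks of several windows, delimited after their counts were seen, differed from each other more than chromosome 1 differed from the other autosomes. Between 95 and 120 Mb, 25 Mb held 64 regions, or 2.56 per Mb (1.97 to 3.27). Between 140 and 155 Mb the density was 2.80 per Mb (2.02 to 3.78), and between 40 and 50 Mb it was 2.10 per Mb (1.30 to 3.21). All of these lay below the 3.56 per Mb of the other autosomes, although the interval of the block from 140 to 155 Mb reaches past it. The densest chromosome thus contained long stretches no denser than the other autosomes. Dense blocks were 70 to 80 Mb at 7.50 per Mb (5.90 to 9.40), 130 to 140 Mb at 7.20 (5.63 to 9.07), 155 to 170 Mb at 7.53 (6.21 to 9.06) and 185 to 197 Mb at 8.17 (6.63 to 9.95). When the span was cut into 10 equal parts, the sixth held 2.58 regions per Mb and the last held 7.81, the lowest and the highest of the 10.

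Full windows tended to have full neighbours. Over 192 pairs of adjacent 1 Mb windows of chromosome 1, Pearson's r between the counts was 0.39. It was 0.31 for windows 2 Mb apart and 0.28 for windows 3 Mb apart, and 0.11 at 4 and at 5 Mb. From 6 to 20 Mb it lay between -0.12 and 0.10. On the other autosomes, with each chromosome centred on its own mean, r was 0.34, 0.27 and 0.20 at 1, 2 and 3 Mb and 0.12 at 5 Mb. From 6 to 20 Mb it lay between 0.03 and 0.10. Single chromosomes differed beyond the shortest distances. On chromosome 11 r was 0.35 at 1 Mb and lay between 0.12 and 0.34 from 6 to 20 Mb. On chromosome 17 it was 0.47 at 1 Mb, fell to -0.32 at 8 Mb and reached 0.34 at 20 Mb. Without the window from 90 to 91 Mb, r on chromosome 1 was 0.37 at 1 Mb, 0.27 at 2 Mb and 0.25 at 3 Mb. These values are descriptions across windows of 1 list, which share its libraries and its unknown depth along the chromosome, and no test was made.

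**Figure D3:**
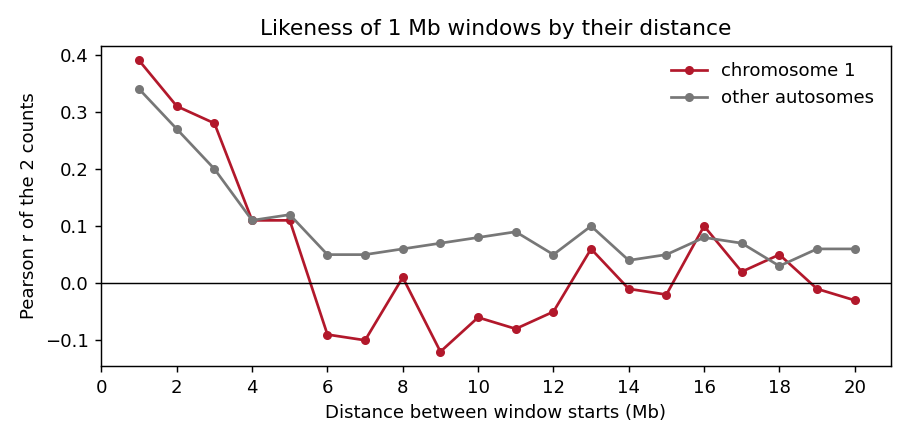
Pearson's r between the counts of 2 windows of 1 Mb (vertical axis) by the distance between their starts (horizontal axis, Mb), for chromosome 1 and the other autosomes. Both lines fall from 0.39 and 0.34 at 1 Mb to 0.11 and 0.12 at 5 Mb, and beyond that chromosome 1 stays between -0.12 and 0.10.

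The stretch from 83 to 93 Mb took up 5.17% of the span and held 97 regions, which is 9.42% of the chromosome's regions. Its density was 9.70 per Mb (7.87 to 11.8), against 5.09 per Mb (4.76 to 5.42) on the rest of chromosome 1, a ratio of 1.91 (95% interval from the exact Clopper-Pearson limits 1.53 to 2.35). The rest of the chromosome, without the stretch, still lay above the 3.56 per Mb of the other autosomes. Without its fullest window the stretch held 72 regions in 9 Mb, or 8 per Mb (6.26 to 10.1), and the ratio fell to 1.57.

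The stretch was not uniform. Its 10 windows of 1 Mb held, in order from 83 Mb, 2, 6, 9, 0, 10, 15, 11, 25, 11 and 8 regions. The first 3 Mb carried 5.67 regions per Mb (3.30 to 9.07), close to the rest of the chromosome. A gap of 2.13 Mb then ran from 85343333 to 87476886. The 6 Mb from 87 Mb on carried 80 regions, or 13.3 per Mb (10.6 to 16.6). Just outside the limits, the window from 82 to 83 Mb held 7 regions and that from 93 to 94 Mb held 10. The raised counts therefore ran past the upper limit, and the unbroken run of windows above the median of 4 was 87 to 94 Mb, with 90 regions or 12.9 per Mb (10.3 to 15.8). Of the 184 positions of a 10 Mb frame moved in steps of 1 Mb, 84 to 94 Mb was the fullest with 105 regions, and 83 to 93 Mb held rank 5 with 97. The moved frame is reported for chromosome 1 only, so a stretch this full is not shown to be particular to it. In fixed 10 Mb windows the other autosomes reached 93 regions.

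A further dense stretch closed the chromosome. The 10 windows from 187 to 197 Mb, which end with the last whole window, all lay above the median of 4 and together held 92 regions, or 9.20 per Mb. This was the fullest 10 Mb frame that did not overlap 83 to 93 Mb. Its windows held at most 13 regions. Regions at 83 to 93 Mb were thus more bunched than at the chromosome's end, where a similar number was spread over all 10 windows. The other unbroken run of 10 windows above the median was 71 to 81 Mb, with 76 regions or 7.60 per Mb.

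The first 500 kb carried most of the fullest window, with 20 of the 25 regions between 90 and 91 Mb, and the second 500 kb carried 5. A group of 11 regions lay within 41.8 kb, from 90113564 to 90155407, and made up 11.3% of the regions in the stretch. The regions of this group were 80 to 371 bp wide, with a median of 192 bp, and covered 5.49% of the 41.8 kb. The nearest region before the group was 239962 bp away and the nearest after it was 82161 bp away.

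Within this group the distances from one region to the next were, in order, 6002, 2243, 373, 5790, 4481, 5517, 400, 5256, 1241 and 8242 bp. Of these 10 distances, 5 lay between 4 and 7 kb and 2 were below 1 kb. The short distances separate the pair from 90122211 to 90122972, with widths of 199 and 190 bp, and the pair from 90139276 to 90139859, with widths of 80 and 104 bp. Whether the group lies over repeated sequence, or over DNA present in more copies, was not tested.

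The other fullest window of 100 kb held 6 regions between 85246897 and 85292147, a length of 45.3 kb. Its regions were 50 to 384 bp wide, with a median of 119.5 bp, and the distances between them ran from 1133 to 17426 bp. It thus had about the same length as the group of 11, with wider distances and narrower regions. Groups of 5 regions filled 3 more such windows, starting at 90317845, 91911220 and 180811348. Of these 5 windows, 4 lay between 83 and 93 Mb. No whole 100 kb window of another autosome held more than 5 regions. The window in which the list of chromosome 11 begins is not whole and held 20.

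**Figure D4:**
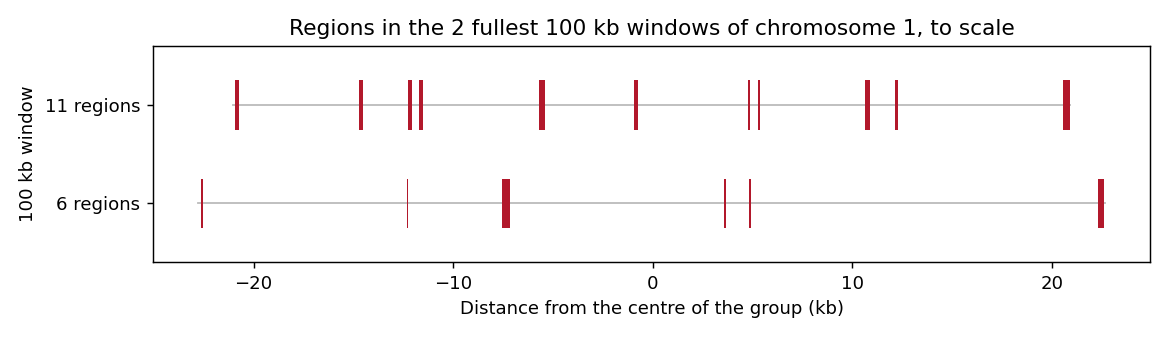
Regions (bars, to scale) in the 2 fullest 100 kb windows of chromosome 1, by distance from the centre of each group (horizontal axis, kb). The upper row shows 11 regions within 41.8 kb with pairs 373 and 400 bp apart, and the lower row shows 6 regions within 45.3 kb.

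Spacing on chromosome 1 was closer than on the other autosomes, which follows from the density by which it was chosen. Relative to the mean distance, its form was nearly that of the other autosomes pooled. The 1029 distances from the end of a region to the start of the next had a median of 99788 bp, with quartiles of 36606 and 220802 bp. The median was 150893 bp on the other autosomes (59945 and 344424 bp), 121525 bp on chromosome 11 and 115980 bp on chromosome 17. Divided by the mean distance of the same set, the median was 0.53 on chromosome 1, 0.54 on the other autosomes, 0.60 on chromosome 11 and 0.52 on chromosome 17. The SD was 1.41 times the mean on chromosome 1 and 1.41 times on the other autosomes. It was lower on chromosome 11, at 1.32 times, and on chromosome 17, at 1.31 times. The pooled value also includes differences in mean distance between chromosomes. On this relative scale the curves of chromosome 1 and the other autosomes lay nearly on each other.

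**Figure D5:**
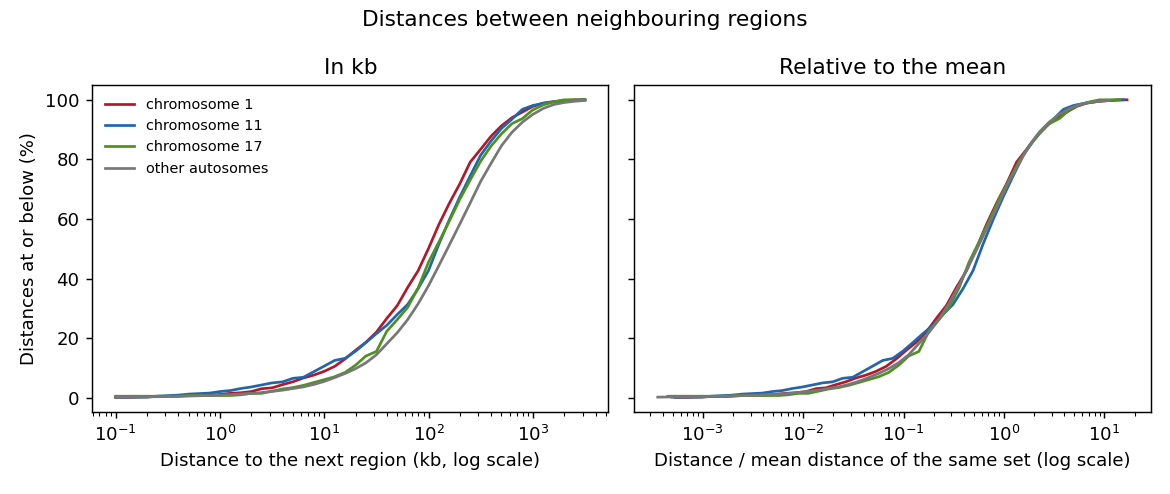
Cumulative share of distances to the next region (vertical axis, percent) on a log axis in kb (left) and divided by the mean distance of the same set (right), for chromosomes 1, 11 and 17 and all other autosomes, among which 11 and 17 are included. Chromosome 1 lies to the left in kb, with a median of 99788 bp against 150893 bp, and the curves come together on the right.

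Close neighbours were more frequent in the stretch than on the rest of chromosome 1, where most of them nevertheless lay. A distance under 10 kb was found for 91 of the 1029 distances on chromosome 1 (8.84%, 95% exact Clopper-Pearson interval 7.18 to 10.7) and for 5.45% on the other autosomes (4.96 to 5.98). Chromosome 11 had a higher share, 10.6% (8.22 to 13.4), and chromosome 17 had 6.05% (3.96 to 8.81). In the stretch from 83 to 93 Mb, 37 of 97 regions (38.1%) had their nearest neighbour within 10 kb, against 129 of 933 (13.8%) on the rest of the chromosome. The median distance to the nearest neighbour was 16402 bp in the stretch and 52269 bp on the rest. This difference follows in part from the count by which the stretch was picked.

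Neighbours under 1 kb apart formed 11 pairs on chromosome 1 (1.07% of distances), 4 of them in the stretch and 7 elsewhere. Chromosome 11 had 12 such pairs (2.05%). The closest pair was 75 bp apart, a region of 90 bp (87501500 to 87501589) and a region of 211 bp (87501665 to 87501875). A pair 179 bp apart lay before it in the same 1 Mb window, from 87476887 to 87477345, and opened the dense run right after the gap of 2.13 Mb. Outside the stretch the closest pair was 127 bp apart, from 21399169 to 21399995, and joined a region of 110 bp to one of 590 bp. Of the 22 regions in the 11 pairs, 8 (36.4%) were under 100 bp wide, against 16.8% of all regions on chromosome 1. Their median width was 161.5 bp, against 170 bp for the whole chromosome. The share rests on few regions, and no interval was computed for it.

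Long gaps took up less of chromosome 1 than of the other autosomes together. It had 3 stretches over 2 Mb without a region, and they took up 3.46% of the span. On the other autosomes there were 70, and they took up 8.94%. The share was smaller still on chromosome 11 (2.24%), and chromosome 17 had 0 such gaps. The longest, 2.47 Mb, ran from 46532100 to 49002342, the second was the gap of 2.13 Mb inside 83 to 93 Mb, and the third, 2.09 Mb, ran from 25681634 to 27769664. The fourth, 1.96 Mb, fell just short of the limit and ran from 95504396 to 97463830. Stretches over 1 Mb numbered 23 and took up 16.4% of the span, against 27.6% on the other autosomes, 14% on chromosome 11 and 20.3% on chromosome 17. The longest gap elsewhere on an autosome was 7.42 Mb, on chromosome 11 it was 2.67 Mb and on chromosome 17 it was 1.97 Mb. The mean distance between regions was 187802 bp on chromosome 1 and 281275 bp on the other autosomes. Fewer gaps over a fixed limit therefore follow in part from the density by which chromosome 1 was chosen. Assembly gaps and sequence where short reads cannot be placed were not looked up.

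Widths on chromosome 1 spanned 41 to 890 bp, with a median of 170 bp (95% order-statistic interval 160 to 177) and quartiles of 116 and 258 bp. The other autosomes had a median of 163 bp (160 to 167) and quartiles of 112 and 252 bp, and the intervals overlap. Narrow regions, under 100 bp, numbered 173 (16.8%, 14.6 to 19.2), against 19.1% elsewhere (18.2 to 20). Wide regions, of 500 bp or more, numbered 33 (3.20%, 2.22 to 4.47), against 3.6% elsewhere (3.20 to 4.03). Chromosome 1 thus held more regions per Mb of nearly the same width.

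Of the widest regions, none belonged to the group of 11. The 5 widest spanned 890 bp (82551717 to 82552606), 831 bp (54551961 to 54552791), 824 bp (90395977 to 90396800), 816 bp (91946957 to 91947772) and 697 bp (82610988 to 82611684). The first and the fifth were neighbours, 58381 bp apart, in the window just before 83 Mb, and the third and the fourth lay inside the stretch. So 4 of the 5 widest lay within 10 Mb of each other. This depends on the cut at 5, since the regions of rank 6 to 10, 687 to 617 bp wide, all lay before 82 Mb. The narrowest region, 41 bp from 169512373 to 169512413, was followed by a gap of 1.09 Mb.

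Width showed little relation to local density. Regions in windows with 1 or 2 regions had a median width of 161 bp (137 to 177), those in windows with 3 to 5 had 159 bp (153 to 177), those in windows with 6 to 9 had 167 bp (154 to 182) and those in windows with 10 to 25 had 183 bp (163 to 199). Over the 141 windows with 3 or more regions, Spearman's rho between the count and the median width was -0.01. Adjacent regions did not resemble each other in width either, with a Spearman's rho of 0.02 over 1029 pairs and 0.03 over the 91 pairs less than 10 kb apart. Both are descriptions without a test. In the stretch from 83 to 93 Mb the median was 184 bp (142 to 202) and on the rest of the chromosome 168 bp (160 to 176). Wide regions of 500 bp or more made up 4.12% of the stretch (4 regions, 1.13 to 10.2) and 3.11% of the rest (29 regions, 2.09 to 4.43), which is within the counting error. The part of the stretch before its gap had a median width of 122 bp (97 to 142, 17 regions) and the part from 87 Mb on had 193.5 bp (155 to 211, 80 regions), and these intervals did not overlap. This division was made after the gap had been seen.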

How the data were processed

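The series has 6 ChIRP libraries from 2 clones, and 1 deposited list of regions was used. The authors deposited start and end positions, in bp on mm9 per the submitters' processing notes. Both value columns hold 0 in every row, so 0 rows have a value. Caller, threshold, aligner and read depth are not given in the sources used here. Positions are printed counting from 1, widths are the deposited end less the deposited start, and a region was assigned to a window by its midpoint. Whole windows inside the span from first to last region were counted. Intervals are 95% exact Poisson, Clopper-Pearson or order-statistic intervals, computed with scipy 1.17.1 and numpy 2.4.6 in Python 3.11.15. No hypothesis test was run, because the chromosome and the stretch were selected on their counts and regions of 1 list are not replicates. The members, windows and limits were chosen with earlier results of these data known. Regions named are the 5 widest, the narrowest, those of the 2 fullest 100 kb windows, the closest pair, the 3 longest gaps and the 5 fullest 1 Mb windows; others were singled out after their values were seen. The functions were tested on simulated positions. The gene tables at hand are on another build and were not used for positions, and the planned overlap with genes and sequence was not run.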

Additional observations from a re-analysis of the deposited data

How the results depend on the processing

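Keeping only regions at or above the median width of 164 bp left 535 regions on chromosome 1. By construction this lowered the density to 2.77 per Mb, the median per 1 Mb window to 2 and per 5 Mb window to 12, raised the median distance to 193588 bp and the number of gaps over 2 Mb from 3 to 9. Lowering the gap limit to 1 Mb gave 23 gaps. Counting from the first base, shifting the windows by 0.5 or 2.5 Mb, merging regions less than 1 kb apart, or leaving out the stretch from 83 to 93 Mb moved the values they were run on by less than their intervals. The ratio of the stretch to the rest of the chromosome, 1.91, ran from 1.57 without the window from 90 to 91 Mb to 2.14 for 84 to 92 Mb. No paired analysis was possible because each kind of library has 1 sample and no region has a value in any of them. The read depth is not known, which leaves the number of undetected sites unknown.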
